A study of Schizosaccharomyces pombe with 2 samples.

Results

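Nuclear transfer RNA (tRNA) genes of fission yeast (Schizosaccharomyces pombe) were followed through a Hi-C contact map, which counts how often 2 stretches of the genome are ligated to each other after fixation. The members were all 171 tRNA genes annotated on chromosomes I to III (56, 68 and 47), each placed in its 10 kb bin of the map. Of these, 142 lay in bins with values and 29 in blank bins, 28 of the latter near centromeres. The remaining blank-bin gene, SPATRNACYS.01, was on an arm. Near a centromere means within 100 kb of a centromere midpoint, where 59 of the genes lie. The 111 genes of arm bins filled 102 bins (94 with 1 gene, 7 with 2 and 1 with 3), against 1068 arm bins with none. The 31 genes with values near centromeres filled 10 bins, beside 38 bins with none.

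The study lists 2 biological replicates of the sap1-1 strain, in which the gene of the essential DNA-binding protein Sap1 is mutated. Cultures in rich medium were kept at 26 °C, moved to 33 °C for 6 h and fixed with 3% formaldehyde for 20 min, and the DNA was cut with HindIII. Both replicates belong to 1 group, no control was part of the series, and the values analysed form 1 map whose header carries the tag of replicate 1. The sources do not say whether replicates were pooled, so no spread between replicates can be given and no test was possible.

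Transfer RNAs carry amino acids to the ribosome. Their genes are transcribed by RNA polymerase III: the factor TFIIIC binds the A box and the B box inside the gene and places TFIIIB upstream of it, and TFIIIB recruits the polymerase. In fission yeast, clusters of tRNA genes flank the centromeres, where they are known to act as borders of heterochromatin, and TFIIIC-bound loci have been described at the nuclear periphery.

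The 171 genes decode 20 amino acids and give 63 distinct mature sequences, of which 31 come from 1 gene each and 2 from 9 genes each. Leucine, arginine and serine have 13 genes each, and cysteine and tryptophan 3 each. Gene lengths ran from 71 to 102 bases, and 44 genes have an intron. The tRNAs below were printed because their bins gave the highest values described later or lie nearest a centromere midpoint. Capitals mark the match to the B box core GTTCNANNC, searched on the gene's own strand. Sequences are those of RefSeq, build ASM294v3, written 5′ to 3′ with introns removed. The glycine genes with anticodon GCC, SPCTRNAGLY.10 (chrIII:113716-113786), SPATRNAGLY.02 (chrI:2249180-2249250) and SPATRNAGLY.01 (chrI:1646292-1646362), lie on the minus strand and give 1 mature sequence. SPCTRNAILE.09 (chrIII:817425-817498, plus strand) reads isoleucine codons with AAT. SPBTRNAASN.04 (chrII:4210053-4210126, minus strand) and SPCTRNAASN.06 (chrIII:1701899-1701972, plus strand) are asparagine genes with GTT. SPBTRNAVAL.07 (chrII:1629159-1629241), a valine gene with AAC and an intron of 9 bases, and SPBTRNAALA.10 (chrII:1629902-1629975), an alanine gene with AGC, lie on the plus strand beside centromere II.
SPCTRNAGLY.10, SPATRNAGLY.02 and SPATRNAGLY.01: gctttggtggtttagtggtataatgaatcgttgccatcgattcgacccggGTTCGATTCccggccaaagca
SPCTRNAILE.09: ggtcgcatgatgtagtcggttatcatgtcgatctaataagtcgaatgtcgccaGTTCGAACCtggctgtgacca
SPBTRNAASN.04: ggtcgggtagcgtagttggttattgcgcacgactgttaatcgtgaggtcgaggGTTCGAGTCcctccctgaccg
SPCTRNAASN.06: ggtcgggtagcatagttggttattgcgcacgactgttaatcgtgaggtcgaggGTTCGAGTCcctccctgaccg
SPBTRNAVAL.07: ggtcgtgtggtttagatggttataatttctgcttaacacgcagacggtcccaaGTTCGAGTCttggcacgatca
SPBTRNAALA.10: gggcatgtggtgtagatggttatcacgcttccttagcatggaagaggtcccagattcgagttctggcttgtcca

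The B box core was found in 157 of the 171 genes (91.8%), against 1.24% of windows of 73 bases taken along the genome. The glycine GCC sequence is shared by 8 genes, and the sequence of SPBTRNAVAL.07 and that of SPBTRNAALA.10 by 9 genes each, most of them near centromeres (8 of 9 and 7 of 9). SPBTRNAALA.10 holds no match to the searched letters.

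Fission yeast tRNA genes commonly carry a TATA element upstream, which TFIIIB reads. TATA was found in the 60 bases before the gene in 137 of 171 (80.1%), against 28.0% of genome windows of that length. It was present for 87.4% of the arm genes with values and for 66.1% of the genes near centromeres. A run of TTTTT, the usual RNA polymerase III stop signal, began within 20 bases after the gene in 154 (90.1%), against 6.50% of windows. The 60 bases before the 4 genes whose bins gave the highest values are shown with TATA in capitals, read on the strand of the gene. Matches were marked without overlap, so a TATA of SPCTRNAILE.09 that begins inside the marked one is not capitalized in full.
SPCTRNAGLY.10: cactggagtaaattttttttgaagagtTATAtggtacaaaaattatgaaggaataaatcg
SPATRNAGLY.02: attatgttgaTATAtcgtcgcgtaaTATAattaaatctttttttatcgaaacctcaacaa
SPATRNAGLY.01: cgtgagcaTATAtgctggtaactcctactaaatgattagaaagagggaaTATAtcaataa
SPCTRNAILE.09: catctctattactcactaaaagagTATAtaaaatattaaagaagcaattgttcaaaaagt

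The values are contact signal after iterative correction, which gives every bin the same total. Whole reads could be recovered from them (37526864 reads, with 7686 to 98119 per bin and a median of 58761.5). The median pair of bins of different chromosomes held 11 reads, so single pairs are imprecise, and intervals below are 95% Poisson intervals on the reads that cover counting error only. Arm tRNA bins and the other arm bins had like medians of reads (59027.5 and 58866) and HindIII sites (5 and 5). Their median share of corrected signal with other chromosomes was the same (17.4%), with signal inside the bin left out.

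Contact with the centromeres of other chromosomes was described first, because fission yeast centromeres cluster in the nucleus. On the arms, tRNA bins as a group met these centromeres about as much as their neighbours did. Each bin's mean signal with the bins within 50 kb of the other centromere midpoints was divided by the running median of same-arm bins within 100 kb. The median log2 ratio of the 102 tRNA bins was -0.0026 and that of the other arm bins -0.014. Of the tRNA bins, 50 lay above the running median, beside 48.2% of all arm bins. By chromosome the median was -0.05 on I, -0.0026 on II and 0.03 on III. At 1.5 times the running median or more stood 5 tRNA bins (background 2.91%), and at the inverse or less 2 (background 2.22%).

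**Figure D1:**
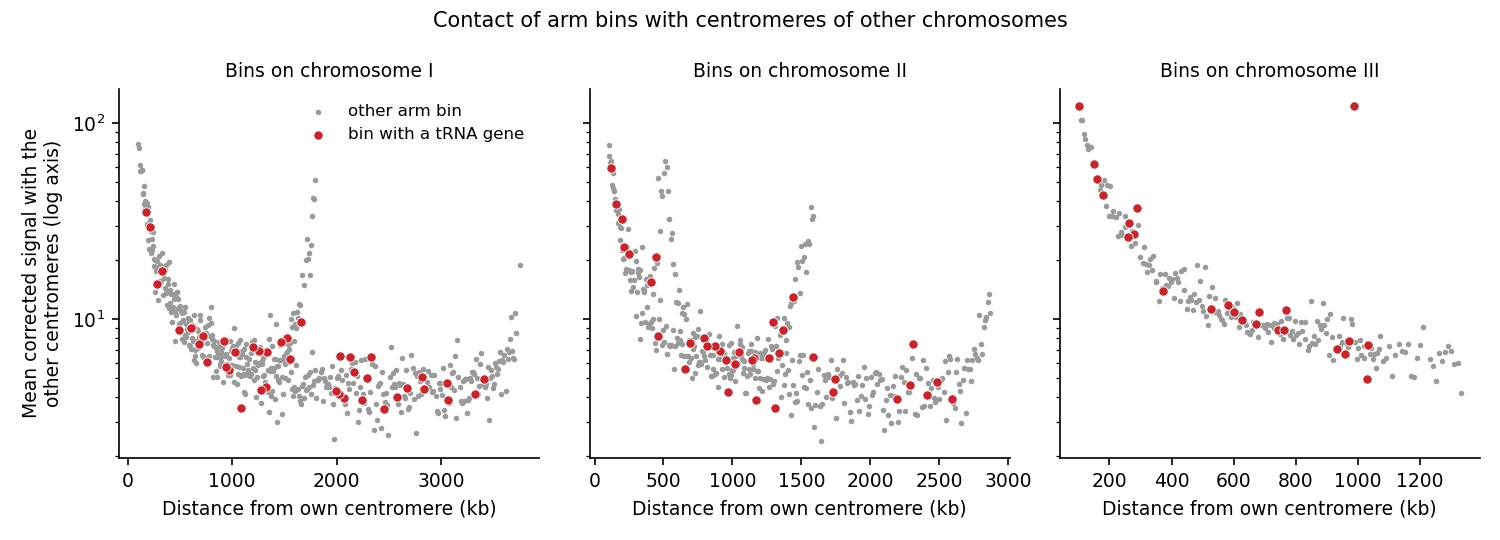
Mean corrected signal of every arm bin with the centromere windows of other chromosomes (log axis) against its distance from its own centromere in kb, 1 panel per chromosome. Red points are the 102 bins with a tRNA gene and grey points the 1068 others; 2 red points on III lie above every grey one, the SPCTRNAGLY.10 bin at 123 far out on the arm and the SPCTRNAVAL.11 bin at 122.7 next to the centromere, where signal is high in general.

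The bin of SPCTRNAGLY.10 (chrIII:110001-120000), a glycine tRNA gene between mug135 and tam14, stood apart from all others. Its mean signal with the centromeres of I and II was 123, where the median of its neighbours was 7.09, a ratio of 17.3 (16.3 to 18.4, from 1098 reads). It ranked 1 of 1170 arm bins, and the next bin had a ratio of 2.77. The signal was unequal: 187.6 with the centromere window of I (176 to 200, 901 reads), 58.3 with that of II (50.4 to 67.0, 197 reads) and 37.3 with that of its own chromosome (30.3 to 45.4, 99 reads). The 4 bins around it gave 3.67 to 7.99 with I, 7.98 to 12.1 with II and 13.1 to 16.0 with III. Excess signal was thus present with every centromere, and that with I was more than 3 times that with II.

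Along chromosome I the signal of this bin was highest next to the centromere, at 389 in the bin 16.3 kb to the left of the midpoint and 264 in the bin 23.7 kb to the right. It was 36.2 at 66.3 kb to the left and 36.3 at 93.7 kb to the right, and 16.4 at 143.7 kb to the right. On II, the bin of SPBTRNAVAL.07 and SPBTRNAALA.10, 2.51 kb from the midpoint, gave 238 from 62 reads. Away from centromeres the bin was not unusual, with a median ratio to expectation of 0.992 over 952 arm partners on other chromosomes, of which 8.93% reached 1.5. The bin also holds 2 LTRs and ura4 (chrIII:115589-116625, minus strand), a gene of uracil synthesis widely used as a selectable marker and reporter, named here after the values were seen. The labels give the strain as sap1-1 and name no inserted copy, and the part of ura4 in the signal was not tested. SPCTRNAGLY.10 itself shares its mature sequence with 7 other genes, 5 of them on arms, and 3.08% of the bin's 30-base words occur on another chromosome.

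**Figure D2:**
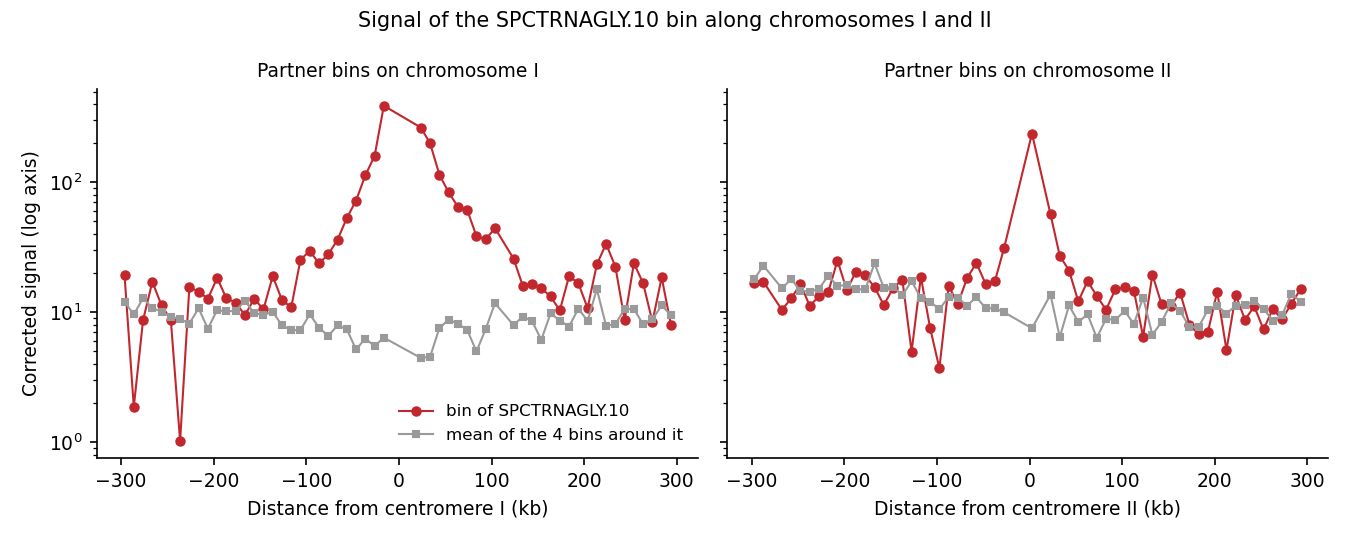
Corrected signal (log axis) of the SPCTRNAGLY.10 bin with bins of chromosomes I and II (red), and the mean of the 4 bins around it (grey), against distance from the centromere midpoint in kb. The red curve rises to 389 near centromere I and to 238 near centromere II, far above the grey curve.

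Without this bin the other 101 tRNA bins had a median of -0.0039, an SD of 0.29 and 4 bins at 1.5 times or more (3.96%). The other arm bins had the same SD of 0.29. The second highest tRNA bin was that of SPCTRNAILE.09 (chrIII:810001-820000), an isoleucine gene beside gir2 and ctr4. Its signal of 36.8 stood against a neighbour median of 20.9 (ratio 1.76, 1.61 to 1.93, 483 reads). Of the other chromosomes, the excess lay with centromere II, at 56.2 (50.5 to 62.3) where the bins around gave 20.6 to 35.9. With centromere I the bin gave 17.5, below the 18.2 to 19.3 of those bins. With its own centromere it gave 65.3 (57.4 to 74.0), above the 45.6 to 57.0 of those bins.

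The third was the bin of SPATRNAGLY.02 (chrI:2240001-2250000), with the same glycine sequence as SPCTRNAGLY.10 and with byr3 and trm9 as neighbours, at 8.06 against 4.90 (ratio 1.65, 1.33 to 2.01, 94 reads). SPBTRNAASP.04 (thi2, tda1) on II and SPATRNAPRO.03 (vps53, tim17) on I followed at 1.60 (1.22 to 2.08) and 1.51 (1.13 to 1.98). Fewest contacts relative to neighbours were seen at SPATRNALYS.04 on I (bcs1, cdr1; ratio 0.551, 0.374 to 0.782, 31 reads) and at SPBTRNAMET.04 on II (hip4, hsp3103; 0.628, 0.449 to 0.855, 40 reads). SPATRNAARG.03 (rlp24, sck2; 0.690), SPCTRNAHIS.03 (SPCC757.11C, aah1; 0.699) and SPBTRNAPRO.07 (SPBC1703.13C, ubp9; 0.703) were next.

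Contact with the centromere of the own chromosome was above the running median in 60 of 102 tRNA bins (58.8%), beside 50% of all arm bins, with a median log2 ratio of 0.04 against -0.01 for the other bins. At 1.5 times or more stood 3 tRNA bins (background 2.99%): SPCTRNAGLY.10 at 2.98 (2.42 to 3.63), SPATRNASER.04 at 1.70 (1.21 to 2.31) and SPCTRNAHIS.03 at 1.65 (1.17 to 2.26). SPCTRNAHIS.03 was thus among the highest with its own centromere and among the lowest with the others. At the inverse or less stood 3 (background 3.59%): SPATRNALYS.04, SPBTRNASER.06 and SPCTRNAGLU.09. SPATRNALYS.04 was thus low with its own centromere and with the mean of the other centromeres.

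Other groups of loci were described by the same measure. Arm bins with a 5S ribosomal RNA gene (34) had a median log2 ratio of 0.07 with the centromeres of other chromosomes, and bins with a long terminal repeat (LTR, the remains of retrotransposons; 170) of 0.03. A list of 29 genes held the protein genes of the polymerase, of TFIIIC and TFIIIB and of their repressor maf1, and 3 genes of other small RNAs (snu6, srp7 and rrk1). Of these 26 were found under their symbol, and 25 lay in arm bins. Their median was 0.03, with 14 of 25 above the running median and none past 1.5 in either direction. The highest were snu6, the U6 spliceosomal RNA gene (1.37), rrk1, the RNase P RNA gene (1.35), sfc1, a TFIIIC subunit (1.28), and brf1, a TFIIIB subunit (1.26). The lowest were tbp1, the TATA-binding protein (0.838), and rpc25, a polymerase subunit (0.844). With the ends of other chromosomes, 13 of 23 lay above the running median (median 0.04).

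Contact with chromosome ends had a lower median at tRNA bins than at other arm bins, mainly on the left arm of I. The end windows were the outermost 5 bins with values on I and II, and 97 tRNA bins lay at least 200 kb from an end. Their median signal with the ends was 7.66 against 8.57 for the other bins. Ratios to the running median had a median log2 of -0.09 (other arm bins -0.01), with 36 of 97 above it (37.1%, background 48.3%). At 1.5 times or more stood 2 (background 5.99%), and at the inverse or less 8 (background 4.31%).

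By arm, the left arm of I had a median of -0.20 with 10 of 34 bins above 0, and it held 7 of the 8 low tRNA bins. The right arm of I had 0.23 with 4 of 7 above. The left and right arms of II had -0.01 and -0.15, and those of III -0.13 and -0.01. The 5S bins had a median of 0.04 with 17 of 32 above, and LTR bins without a tRNA gene -0.08 with 42.0% of 131 above, so low values with the ends were not particular to tRNA bins. Lowest was SPATRNAILE.02 on I (SPAC4A8.14, cdc3), an isoleucine gene, at a ratio of 0.467 (0.336 to 0.631, 42 reads). SPATRNALYS.04 followed at 0.554 (0.365 to 0.805), SPATRNAGLY.02 at 0.584 (79 reads) and SPATRNAARG.01 (pfd6, rpt5) at 0.611 (32 reads). SPATRNAGLY.02 was therefore among the highest tRNA bins with centromeres and among the lowest with ends, and SPATRNALYS.04 was low with both.

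The arm bin with 3 tRNA genes, the glutamine genes SPBTRNAGLN.01, SPBTRNAGLN.02 and SPBTRNAGLN.03 beside clr3 and rpl4301 (chrII:250001-260000), was also low with the ends, at 24.3 against a neighbour median of 43.5 (ratio 0.560, 0.469 to 0.663, 134 reads). Its ratio was 0.937 with the centromeres of other chromosomes and 0.770 with its own. Highest with the ends was the bin of SPBTRNAGLY.05 and SPBTRNAARG.04 on II (fet4, car1), at 1.83 (1.64 to 2.04, 327 reads). SPATRNACYS.02 (ssr2, gly1) gave 1.67 (1.37 to 2.01) and SPATRNATHR.01 (slm3, erv25) 1.49 (1.15 to 1.90). SPBTRNAARG.05 (stn1, meu18) gave 1.36 and SPATRNAARG.03 gave 1.31. Of the 8 bins with 2 or more tRNA genes, 1 thus stood at 1.5 times or more and 1 at the inverse or less. Among the 89 bins with 1 gene these counts were 1 and 7.

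**Figure D3:**
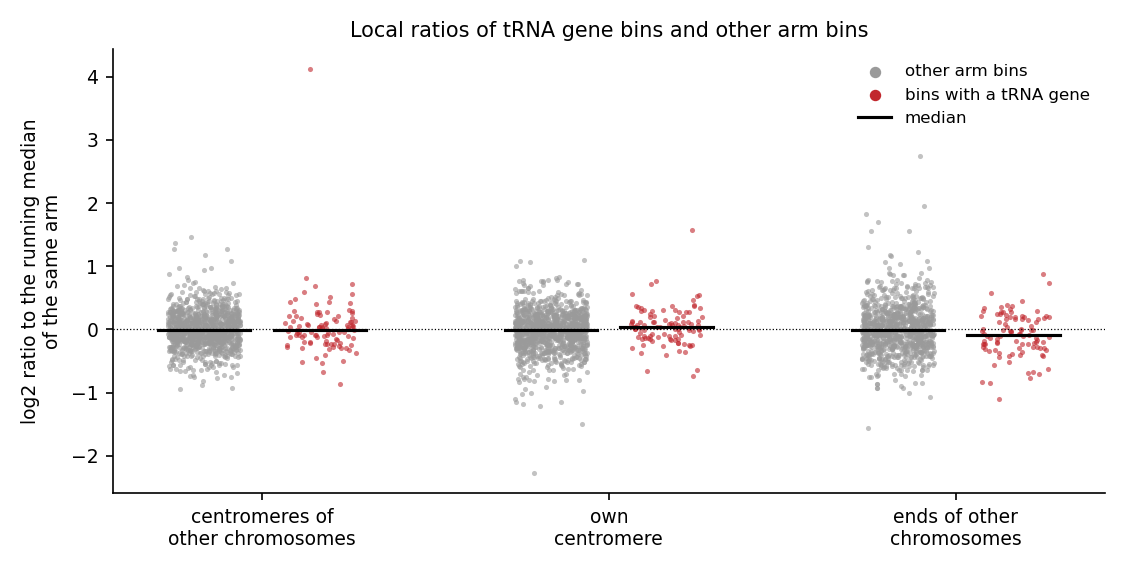
log2 ratio of each arm bin to the running median of its arm, for contact with the centromeres of other chromosomes, with the own centromere and with the ends of other chromosomes; red points are tRNA bins, grey points other arm bins and black bars medians. The red medians lie at -0.0026, 0.04 and -0.09.

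Contact among tRNA genes was measured over 3384 pairs of arm tRNA bins on different chromosomes. Such pairs met about as often as their reference: the median ratio of observed to expected contact was 0.988, where expectation is the mean of pairs of the same chromosomes whose bins lie as far from their centromeres, in steps of 100 kb. Pairs without a tRNA gene had 0.967. Of the tRNA pairs, 48.5% were above 1 (background 46.3%) and 311, or 9.19%, reached 1.5 (background 8.44%). The median was 0.963 between I and II, 1.02 between I and III and 0.990 between II and III, against 0.967, 0.969 and 0.966 for pairs without a tRNA gene. From reads without the correction the medians were 0.963 and 0.957, so most of the gap between the groups went with the correction.

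Seen bin by bin, 62 of 102 tRNA bins (60.8%) had more contact with tRNA bins of other chromosomes than with other bins there. All arm bins did so in 60.4% of cases. Averaged maps centred on the pairs gave 1.02 at the centre and 0.998 around it (0.954 to 1.05 over 440 positions, 27 of them above the centre). Pairs of 5S bins had a median of 1.05 (373 pairs; 0.969 in reads without the correction) and pairs of a 5S bin with a tRNA bin 1.03 (1584 pairs; 1.01 in reads).

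Pairs of genes for the same tRNA had medians close to that of all pairs. Pairs that share an amino acid had a median of 0.982 (209 pairs), pairs that share none 0.988 (3175), pairs with the same anticodon 0.987 (94) and pairs with the same mature sequence 0.990 (71). Among the 8 amino acids with at least 10 pairs the medians ran from 0.883 for serine (44 pairs) to 1.37 for methionine (11 pairs).

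A few pairs stood far above the rest among the 385 with at least 20 reads. The glycine gene SPATRNAGLY.02 and the isoleucine gene SPCTRNAILE.09 met at 7.62 times expectation (6.17 to 9.30, 96 reads), and SPATRNAGLY.01 (gid7, vma1) and SPCTRNAILE.09 at 6.39 (4.90 to 8.19, 62 reads). The bins around these pairs averaged 1.47 and 1.31, so the excess sat on the 10 kb bins themselves. SPBTRNAGLY.06 (def1, tre1) met SPCTRNAILE.09 at 2.86 (1.99 to 3.98, 35 reads), and the bin of SPATRNASER.01 and SPATRNAMET.01 (rpl3802, izh3) at 2.08 (22 reads). SPCTRNAILE.09 therefore took part in 4 of the 8 highest pairs.

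That 3 of these 4 partners carry the glycine GCC sequence printed above was noticed after the values were seen. The fourth arm bin with that sequence on another chromosome, SPBTRNAGLY.03 (zas1, guk1), met SPCTRNAILE.09 at 1.17 (11 reads). SPATRNAGLY.01 and SPATRNAGLY.02, 600 kb apart on 1 arm, met at 1.32 times the mean of that separation (1.01 to 1.70, 59 reads). The SPCTRNAILE.09 bin was high with many partners, with 14.6% of 952 arm bins of other chromosomes at 1.5 or more and a median of 1.12. It shares 0 words of 30 bases with the bins of the 4 partners among the highest pairs, but 0.47% of its words occur on other chromosomes. The next bin (chrIII:820001-830000) holds SPCTRNAGLY.11, which gives the same glycine GCC sequence. The part of shared sequence was not tested. Without the SPCTRNAILE.09 bin the median over pairs of different chromosomes was 0.985 and the highest ratio 3.43.

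The asparagine genes SPBTRNAASN.04 (rpn1301, crb2) and SPCTRNAASN.06 (SPCC417.12, SPCC417.15) met at 3.32 (2.38 to 4.51, 41 reads), with 1.07 around them. Their bins share 124 words of 30 bases and each holds a 5S gene; the part of shared sequence was not tested. SPATRNASER.04 (hot13) and SPBTRNAGLY.03 met at 3.23 (1.97 to 4.99, 20 reads) with 2.99 around them, and the SPATRNASER.04 bin had only 13584 reads in all. SPATRNATHR.01 met SPBTRNAHIS.02 (ecl2, dic1) at 2.28 and SPATRNALYS.04 met SPBTRNAASN.03 (git11, csn1) at 1.99, from 20 and 22 reads. The last 3 pairs thus rest on few reads, and the first of them lies in a wider patch of high values.

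On the same arm, tRNA bins met slightly more than other bins when all arms were pooled, most clearly at 100 to 200 kb. The 628 pairs 50 to 1000 kb apart had a median of 1.01 over the mean at the same separation, against 0.979 without a tRNA gene. Of them 342 lay above 1 (54.5%, background 46.3%), but only 9 reached 1.5 (1.43%, background 2.73%). At 100 to under 200 kb the 85 pairs had a median of 1.05, against 0.984 for pairs without a tRNA gene. Of these 85 pairs 60 lay above 1 (70.6%, others 45.6%) and 0 reached 1.5 (others 0.803%). The tRNA median was 1.01 at 50 to under 100 kb and 1.03 in the range that starts at 200 kb. In the range of largest separations, up to 1000 kb, it was 0.990 with 47.3% above 1 (others 46.6%). Pairs without a tRNA gene had a median of 0.978 in each of these other ranges. In reads without the correction the medians at 100 to under 200 kb were 1.09 and 0.990, with 58.8% and 48.9% above 1. Over all separations the medians in reads were 0.985 and 0.983.

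By arm, the tRNA median exceeded that of the other pairs on the left arm of I (1.04 against 0.993), the right arm of I (1.09 against 0.918), the left arm of II (1.03 against 0.957) and the left arm of III (1.11 against 1.06). It was lower on the right arms of II (0.945 against 0.963) and III (0.970 against 1.07). The mean at each separation was taken over all arms together, and tRNA pairs were spread differently over the arms. The right arm of I, where other pairs were lowest, held 25 of 628 tRNA pairs and 9907 of 68075 others. The right arm of III, where they were highest, held 74 and 5296. The part of this spread in the pooled gap was not tested. Among pairs with at least 20 reads, the highest joined the threonine genes SPATRNATHR.02 (drc1, tom70) and SPATRNATHR.04 (rrp41, tif211), 730 kb apart, at 1.84 (1.15 to 2.79, 22 reads). SPATRNALEU.01 (pzh1, rnf13) with SPATRNACYS.02 followed at 1.70, SPATRNAGLY.01 with SPATRNAVAL.03 (chp1, ypt3) at 1.68, SPCTRNAGLY.10 with SPCTRNASER.07 (nap1, ser3) at 1.57 and SPCTRNAASN.06 with the bin of SPCTRNASER.13 and SPCTRNAGLN.06 (SPCPB1C11.02, amt1) at 1.55. They rested on 27 to 108 reads, and the lower bounds lay between 1.12 and 1.29. The bins around the pair at 1.57 averaged 1.50 and those around the pair at 1.55 averaged 1.34, so both lay in wider patches of high values. Around the other pairs named the mean was 0.981 to 1.07.

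On opposite arms of a chromosome the 735 tRNA pairs had a median of 1.01 against 0.975, with 51.6% above 1 (background 46.8%) and 5.17% at 1.5 or more (background 5.81%). The median was 1.05 on I, 1.00 on II and 0.963 on III. Reads without the correction turned the order, at 0.962 for tRNA pairs and 0.973 for the others.

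**Figure D4:**
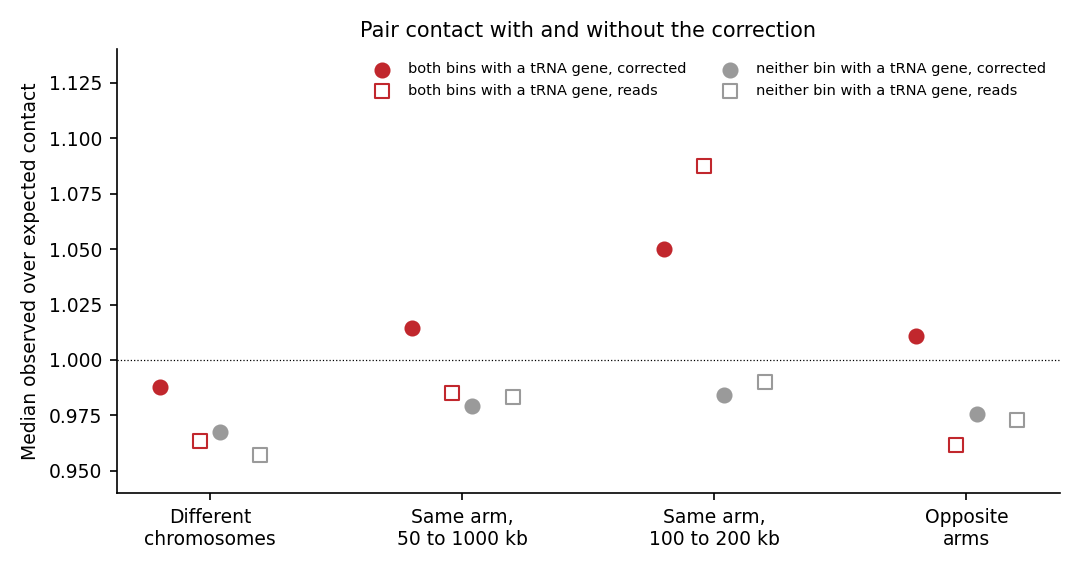
Median ratio of observed to expected contact for pairs with a tRNA gene in both bins (red) and in neither (grey), from corrected values (circles) and from reads without the correction (squares). Red circles lie above grey circles in all 4 groups, while squares nearly meet except at 100 to 200 kb on the same arm (1.09 and 0.990).

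Around the centromeres, contact between chromosomes was strong in bins with and without a tRNA gene. The mean signal of tRNA bins with the bins within 100 kb of other midpoints was 9.14 to 21.5 times the mean between arm bins of different chromosomes (12.6). Bins without a tRNA gene had 6.42 to 15.9 times that mean. The tRNA bins lay at most 66.3 kb from their midpoint and the others up to 98.5 kb. Bins without a tRNA gene whose distance from their own midpoint differed by at most 10 kb served as the reference. Of the 10 tRNA bins 8 had such a match, and their ratios ran from 0.899 to 1.38 with a median of 1.08, 6 of them above 1. The 38 bins without a tRNA gene had a median of 0.988. From reads without the correction the median over the tRNA bins was 0.947.

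The highest value belonged to the bin of 7 tRNA genes on III (chrIII:1060001-1070000), SPCTRNAALA.12, SPCTRNAVAL.12, SPCTRNASER.09, SPCTRNAARG.10, SPCTRNAASP.05, SPCTRNAARG.11 and SPCTRNALEU.11, at 271 (265 to 277, 7436 reads) and 1.38 times its match. On II, the bin of SPBTRNAASN.01, SPBTRNAMET.05, SPBTRNATYR.02, SPBTRNALEU.06, SPBTRNAGLY.07 and SPBTRNALYS.07 gave 219 (1.22), and the bin of 9 genes, SPBTRNATYR.03, SPBTRNALEU.07, SPBTRNAGLY.08, SPBTRNALYS.08, SPBTRNAILE.08, SPBTRNAALA.11, SPBTRNAVAL.08, SPBTRNAGLU.07 and SPBTRNAARG.07, gave 204 (1.13). The bin of SPBTRNAVAL.07 and SPBTRNAALA.10 gave 175 but had no match and the fewest reads of all bins, 7686. On I, SPATRNAPHE.02 gave 232 (1.17) while SPATRNAARG.02 gave 155 (0.899), SPATRNAVAL.04 130 (1.01) and the bin of SPATRNACYS.03 and SPATRNAPHE.01 115 (1.03). On the other side of centromere III, SPCTRNALYS.11 gave 213, with no match, and SPCTRNAPHE.05 gave 176 (0.948). In reads without the correction the 7-gene bin was above its match (218.7 against 175.2 reads per pair), while the 6-gene bin (116.0 against 200.4) and the 9-gene bin (48.1 against 188.7) were below. The matches of these 3 bins and of the SPATRNAPHE.02 bin all lay farther from the midpoint, where signal is lower, and the 7-gene and the 9-gene bin had 1 match each, at 48.5 and 32.5 kb against 38.5 and 22.5 kb. Their ratios above 1 are therefore not at equal distance, and the part of distance was not tested.

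Repeats limit these values: 62.1% of the 30-base words of the SPATRNAPHE.02 bin, 38.6% of those of the 9-gene bin and 80.1% of those of the SPCTRNALYS.11 bin occur on another chromosome. Repeats within the own chromosome were not counted. Among the 33 pairs of these bins on different chromosomes the signal ran from 114 to 733 with a median of 248, from 12 to 388 reads. The 12 pairs that share such words had a median of 319 and the others 222, and the part of shared sequence was not tested.

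Arm tRNA bins met tRNA bins near other centromeres about as much as other arm bins did. The 672 pairs had a median ratio of 0.916 against 0.900 for other arm bins with the same partners, with 42.7% above 1 in both groups (background 45.3%). Of the tRNA pairs 114 reached 1.5 (background 13.1%), and of the other arm bins with these partners 16.3%, so the distance from the background goes with the partners. Their mean of 1.04 fell to 0.968 without the SPCTRNAGLY.10 bin, which was also the mean of the other arm bins.

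Local folding was read from an insulation score, which dips where the 2 sides of a bin meet little. It is the log2 of contact across a bin within 50 kb relative to the mean of its chromosome. In the corrected map 29 of 102 tRNA bins were boundaries, that is minima at least 0.1 deep (28.4%, exact binomial interval 19.9 to 38.2%). This depth did not have to be reached on both sides of the bin. At SPBTRNALEU.09 the score rose by 0.0126 to the left and 0.458 to the right, and at SPBTRNALEU.10 by 0.185 and 0.0139. Other boundaries were deep on both sides, such as SPATRNAMET.02 (0.457 and 0.437). Some boundary scores lay above the chromosome mean, such as SPBTRNAGLU.08 at 0.047. The share was 16.3% for all arm bins and 15.2% for arm bins with no tRNA gene (159 of 1048, 13.1 to 17.5%). In reads without the correction the 2 shares were alike, 28 of 102 (27.5%) and 27.8%, and 12 tRNA bins were boundaries in both. The excess at tRNA bins was therefore seen in the corrected values only.

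The low scores reached past the bin: the median score was -0.05 at tRNA bins and -0.06 in the bins 10 kb to their right, against -0.01 at other arm bins. Since boundaries are local minima, a bin beside one cannot be another, so the shares at neighbouring bins have no reading of their own. At 20 kb to the left of tRNA bins the share was 24%. Bins with a convergent pair of protein genes, where cohesin is known to gather in fission yeast, held nearly all boundaries, with or without a tRNA gene. Of tRNA bins, 28 of 87 with such a pair were boundaries (32.2%) and 1 of 15 without one. Of other arm bins, 151 of 836 with a pair were boundaries (18.1%) and 8 of 212 without one (3.77%). With bins split in 3 by their reads, from lowest to highest, the tRNA share was 23.5%, 32.4% and 29.0%, against 13.9%, 13.9% and 17.6% for other bins. Bins with 5S genes or LTRs lay near the background, with 5 of 34 bins with a 5S gene (14.7%) and 16.5% of LTR bins. Depth was alike, with a median of 0.25 at tRNA boundaries and 0.27 at others.

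The lowest score was at SPCTRNAASN.05 (ade10, opy1; chrIII:940001-950000), at -0.41 with a depth of 1.11. The score rose by 0.96 over the first 90 kb toward the centromere and by 0.43 over 40 kb on the other side. SPATRNATHR.05 (mak1, mug51) and SPATRNAMET.02 (thi9, SPAC9.11) had -0.31 each, with depths of 0.30 and 0.62. SPCTRNAASN.06 had -0.29 without being a boundary, and SPATRNALYS.03 (meu26, cpc2) -0.29 with a depth of 0.38. The 3-gene glutamine bin was the only boundary among the 8 arm bins with more than 1 tRNA gene, with a depth of 0.23, against 28 of the 94 bins with 1 gene.

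**Figure D5:**
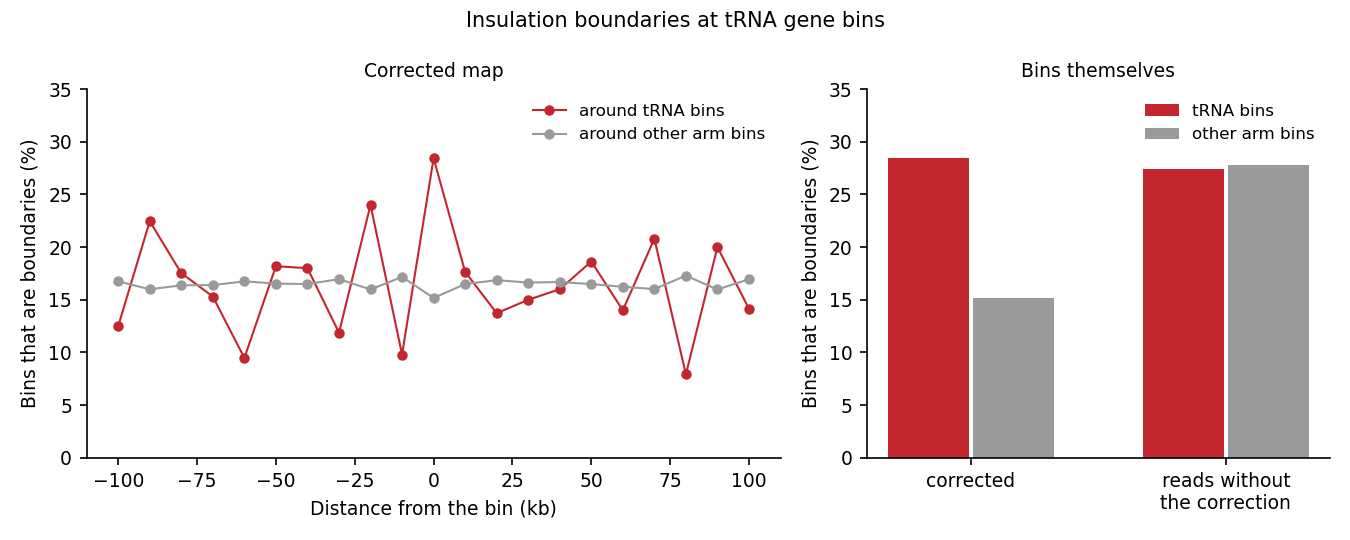
Left, share of bins that are insulation boundaries (%) against distance in kb from tRNA bins (red) and from other arm bins (grey) in the corrected map; right, the share at the bins themselves in corrected values and in reads without the correction. The red share is highest at the tRNA bin (28.4%) and next highest 20 kb to its left (24%), and in reads the 2 bars are 27.5% and 27.8%.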

How the data were processed

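Both samples listed are sap1-1 cultures in 1 group, and the deposited matrix is 1 map. Per the submitters' processing notes, the genome build was ASM294v2 and the aligner Bowtie2 2.1.0. Per the file headers, the authors applied iterative correction, and each deposited value is the contact signal of 2 bins of 10 kb. The header gives 37571192 reads. Of 1258 bins, 1218 have values, with equal sums (57251.4 to 57251.5). Dividing each value by a factor per bin gave whole reads (100% of values within 0.05), 99.9% of the header's total.

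Genes came from the RefSeq annotation of ASM294v3, whose 3 chromosome lengths equal those of the matrix. Centromere midpoints, windows of 50 kb, end windows of 5 bins, running medians over 100 kb, classes of 100 kb, a 50 kb insulation score and a depth of 0.1 were used, with 1.5 times as the threshold for a call. With 1 map no test was made. Groups are described by medians and shares beside other arm bins, with 95% intervals on counts. The members, the list of RNA polymerase III genes and the measures were chosen with earlier results of these data known. Named are the 5 highest and 5 lowest tRNA bins with centromeres and with ends, bins of 3 or more genes, the 8 highest pairs between chromosomes and 5 on an arm with at least 20 reads, tRNA bins near centromeres, the 5 lowest insulation scores, and at most 2 neighbouring protein genes of each; their roles are given only where certain. Amino acids follow the locus tag, and an anticodon was assigned only where it decodes that amino acid. In 5 genes the RefSeq product differs from the locus tag, and 2 genes (SPBTRNALYS.07 and SPBTRNASER.06) have no assigned anticodon. The alternatives were reads without the correction, other windows and depths, and leaving out groups of bins or single bins. Python 3.11.15, NumPy 2.4.6, SciPy 1.17.1 and pandas 2.3.3 were used, and the measures were tested on simulated data.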

Additional observations from a re-analysis of the deposited data

How the results depend on the processing

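No paired analysis was possible because the 2 replicates belong to 1 group and 1 map. For contact with the ends, the tRNA median stayed below that of other arm bins under all 8 alternatives (-0.12 to -0.04). For contact with the centromeres of other chromosomes, 6 of 9 alternatives kept the order of the tRNA bins and the other bins, with medians from -0.04 to 0.03. Pairs of different chromosomes kept it under 9 of 9, at 0.963 from reads without the correction and 0.974 without bins that hold a 5S gene or an LTR. Same-arm pairs kept it under 6 of 6, at 0.985 from reads and 1.04 over a narrower range of separations. Opposite-arm pairs kept it under 4 of 5, at 0.962 from reads. Arm bins with tRNA bins near centromeres kept it under 5 of 6, and tRNA bins near a centromere under 2 of 3. The boundary share kept it under 7 of 8, the exception being reads without the correction, and was 19.6% with a depth of 0.2. The gap between pairs with and without a shared amino acid kept its sign under 3 of 5. The cause of these moves was not tested. All other alternatives stayed inside a 95% interval of the value reported. For medians it came from the ranks of the bins or pairs, and for the boundary share it was the exact binomial interval. It treats bins and pairs as independent, although pairs share bins and all come from 1 map. Staying inside it therefore describes the size of a move only. Alternatives that leave out the bin of SPCTRNAGLY.10 or SPCTRNAILE.09, and the one restricted to convergent gene pairs, were chosen after seeing the data. With 1 map, no spread between cultures and no unmutated control, none of the values can be credited to the sap1-1 allele.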
